A study of Saccharomyces cerevisiae with 36 samples.

Results

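The genes described here encode the protein folding and quality control machinery of the yeast mitochondrial matrix. They are *HSP78*, *HSP60*, *HSP10*, *SSC1*, *MDJ1*, *MGE1*, *ECM10*, *ZIM17*, *SSQ1* and the protease gene *PIM1*. They were chosen by name and function, and all 10 have a row among the 6172 genes of the authors' normalized table. All 10 are also among the 6403 genes of the read count table and passed the filter on low counts, which left 6038 genes.

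The study asked how an earlier heat shock changes the transcript levels of *Saccharomyces cerevisiae* during a later one, and whether the RNA-binding protein Mip6 takes part. WT cells were BY4741 (MATa *his3Δ1 leu2Δ0 met15Δ0 ura3Δ0*), and *mip6Δ* cells were the same strain with *MIP6* replaced by a KanMX cassette, so that both strains share the auxotrophies. Memory cells had a first heat shock of 20 min in rich medium, 60 min of recovery and then the final heat shock, whereas no-memory cells of the same split culture had only the final one. Both shocks were started by adding medium at 51°C to the cooler culture, so that the cells were shocked at a temperature below that of the added medium. Samples were taken before the final shock (0 min) and after 15 and 20 min of it, which gave 12 groups of 3 samples for 2 strains, 2 conditions and 3 times. The 0 min group of no-memory cells had thus not been heat-shocked, and the 0 min group of memory cells had recovered from the first shock. The replicates of a group are described as biological ones, and their numbers were not tied to cultures or days in the labels.

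Between 28270651 and 42233578 reads per sample were assigned to genes. The libraries of *mip6Δ* held 0 reads of *MIP6* in 18 of 18 samples, against 134 to 626 reads in the 18 WT samples. Markers of MATa cells, the labelled mating type, summed to between 348 and 2215 CPM (read counts scaled to a common library size) over 6 genes, against 38.7 to 63.0 CPM for 4 genes of MATα cells and 18.0 to 43.0 CPM for 4 sporulation genes. Reads were listed for *HIS3* in all samples, and no row was found under the names *LEU2*, *MET15*, *MET17* or *URA3*. Replicate 2 of *mip6Δ* memory cells at 0 min carries conflicting labels, with 0 min in the title and 20 min in the time field, and was kept at 0 min. For the genes described here, replicate 1 of WT memory cells at 0 min stood apart: the mean log2 CPM of the 10 genes was 7.59 there and 6.95 and 6.66 in the other samples of its group. The mean log2 CPM of 13 cytosolic heat shock chaperones was 9.96 in that library against 8.50 and 7.56, so results that move with it are also given without it. The library was chosen after these values were seen, so p-values without it are descriptive. Replicate 1 of WT no-memory cells at 0 min, which also had the highest mean of its group (8.07), was kept. Differences between memory and no-memory cells without the library are thus not balanced in replicate number. In the library that stood apart, 119 genes lay more than 1 log2 unit from their group median. In replicate 1 of *mip6Δ* no-memory cells at 15 min, which was kept, 145 did.

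Most mitochondrial proteins are made in the cytosol, and those of the matrix enter it as unfolded chains. The matrix Hsp70 Ssc1 pulls these chains in and folds them in cycles of ATP hydrolysis. In folding, the J-protein Mdj1 starts hydrolysis and Mge1 exchanges the nucleotide, and the Hsp60 chamber with its Hsp10 lid folds many of the chains further. Hsp78 dissolves aggregates in the matrix, and Pim1, a Lon-type protease, degrades proteins that stay misfolded. Heat unfolds proteins in this compartment as elsewhere, and several of the genes are known targets of the heat shock factor Hsf1, which binds alternating GAA and TTC units, while Msn2 and Msn4 bind the stress response element AGGGG.

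The promoters were searched first, because the genes parted into groups by their response. A run of 3 alternating units, that is GAANNTTC followed directly by NNGAA or TTCNNGAA followed directly by NNTTC, was looked for on both strands in the 500 bases before each start codon of the RefSeq R64 genome. It was found before *HSP78*, *HSP60* and *HSP10* and in none of the other 7 windows, while 89 of 6000 promoters of the genome (1.48%) held it. The search was made with the responses known, and a link between the run and the response was not tested. The 30 bases around each match are shown because these 3 genes had the 3 largest fold changes of the first heat shock at 15 min. They are written 5′ to 3′ on the minus strand, which is the coding strand of all 3 genes, with the GAA and TTC units in capitals:
HSP78, chrIV:974467-974496, from 253 to 224 bases before the start codon: gttattTTCcaGAAtgTTCtaGAAgtgttc
HSP60, chrXII:665191-665220, from 218 to 189 bases before the start codon: acctcgtgGAAttTTCcaGAAaaccaaatg
HSP10, chrXV:370983-371012, from 168 to 139 bases before the start codon: caatgataGAAatTTCtaGAAtcttgaagg

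*HSP78* holds 2 overlapping matches there, which make up 4 units in a row. The pairs GAANNTTC and TTCNNGAA, which are parts of the longer run, were common, with 19.2% and 21.2% of all promoters, and of the other 7 genes only *PIM1* had one of them. The element AGGGG or its reverse complement CCCCT was present in 34.1% of all promoters, with 3 copies before *HSP78*, 2 before *MDJ1* and 1 each before *SSC1*, *ECM10* and *ZIM17*. *SSC1* and *MDJ1* rose with heat and were lower in memory cells without a 3-unit run in their windows. The same held for *PIM1*, which was lower in memory cells before the final shock and has no copy of the element. *SSQ1* also rose with heat without a copy, and *ECM10* and *ZIM17* rose with 1 copy each, which is not shown. A link between the element and the response was not tested. The copies before *SSC1* and *MDJ1* are given as examples, again on the coding minus strand and with the element in capitals:
SSC1, chrX:521838-521867: cggttccaccgcCCCCTgcctctttttccg
MDJ1, chrVI:106591-106620: ggatttgcgcgtCCCCTttttttcttcatt
MDJ1, chrVI:106564-106593: attctctgactcCCCCTaccttctcccact
A match describes letters in a window and not binding.

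The genes differ widely in level. Counts were scaled with TMM factors to CPM, and levels of different genes are given as CPM per kilobase of coding sequence. In unshocked WT cells, *HSP10*, *SSC1* and *HSP60* lay close together at 1311 ± 166, 1198 ± 124 and 1131 ± 111 CPM per kilobase (SD, n = 3). *HSP78* followed with 465 ± 189 and *MDJ1* with 340 ± 83, then *MGE1* with 206 ± 23, *PIM1* with 54.2 ± 1.8, *ZIM17* with 51.2 ± 1.3, *SSQ1* with 26.3 ± 2.6 and *ECM10* with 10.1 ± 1.2 CPM per kilobase. The first 3 genes and the pair *PIM1* and *ZIM17* did not part beyond their spread, and neither did *HSP78* and *MDJ1*. After 15 min of the first shock *HSP10* led with 5359 ± 767, ahead of *HSP60* with 3178 ± 378, *SSC1* with 2385 ± 297 and *HSP78* with 1688 ± 277 CPM per kilobase.

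Over all 36 samples, *HSP78* covered by far the widest range among the 10 genes. Its highest CPM was 124 times its lowest, against 14.4 times for *HSP10*, 14.2 for *MDJ1*, 12.7 for *HSP60*, 7.39 for *SSC1* and 3.70 for *PIM1*. *ZIM17*, *ECM10*, *SSQ1* and *MGE1* stayed within 1.94, 1.92, 1.85 and 1.62 times. CPM is a share of all reads, so a change in every cell and a change in the fraction of cells that respond cannot be told apart.

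**Figure D1:**
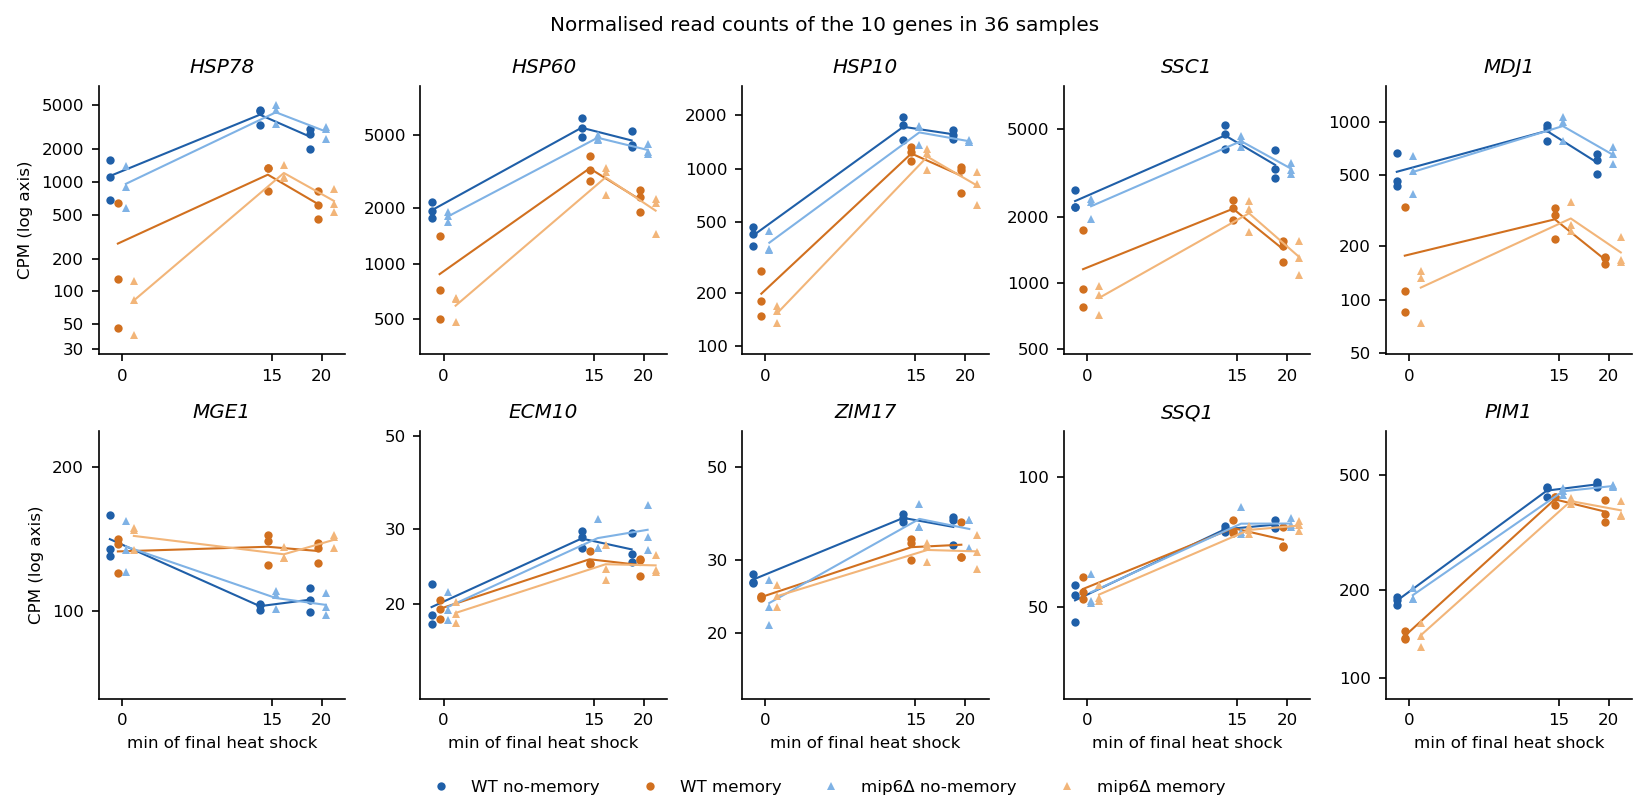
Normalised read counts (CPM, log axis, 1 panel per gene) against minutes of the final heat shock, with 1 point per sample, lines through the means of 3 samples and points set slightly apart sideways by strain and condition. Memory cells (orange) lie below no-memory cells (blue) for *HSP78*, *HSP60*, *HSP10*, *SSC1* and *MDJ1*, *MGE1* is lower only in heat-shocked no-memory cells, and WT (circles) and *mip6Δ* (triangles) run together except in 1 WT memory sample at 0 min.

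In no-memory WT cells, the first heat shock raised 9 of the 10 genes within 15 min and lowered 1, *MGE1*. Tests were made with edgeR's quasi-likelihood method over all 12 groups, and a gene was called when its Benjamini-Hochberg adjusted p over 6038 genes was under 0.05. All 10 genes were called, but so were 71.9% of all genes, with 35.9% of all genes higher. The median log2 fold change of the 10 genes was 0.88. That of all genes was 0.01, which TMM scaling keeps near 0, and 0.06 with library totals in place of TMM factors. A median over rises and falls together does not give the usual size of a change. At 20 min 8 genes were higher, 1 was lower and *MDJ1* was not called, where 68.8% of all genes were called and 34.8% were higher. The same counts, 9 higher and 1 lower at 15 min and 8 and 1 at 20 min, were obtained in no-memory *mip6Δ* cells, where 74.4% and 72.7% of all genes were called and 37.0% and 36.5% were higher.

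In WT memory cells 8 genes rose at 15 min and 6 at 20 min of the final shock and none was called lower, beside 64.3% and 59.0% of all genes called, 31.7% and 29.1% being higher. Without the library that stood apart, 9 rose at both times. In *mip6Δ* memory cells 9 rose at 15 min and 8 at 20 min, as many as without memory, beside 68.3% and 64.7% of all genes called and 33.3% and 32.2% higher. Median log2 fold changes of the 10 genes at 15 min were 0.80 in WT memory cells (1.43 without that library), 0.92 in *mip6Δ* no-memory cells and 1.29 in *mip6Δ* memory cells. Those of all genes, kept near 0 by TMM scaling, lay between -0.01 and 0.01.

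**Figure D2:**
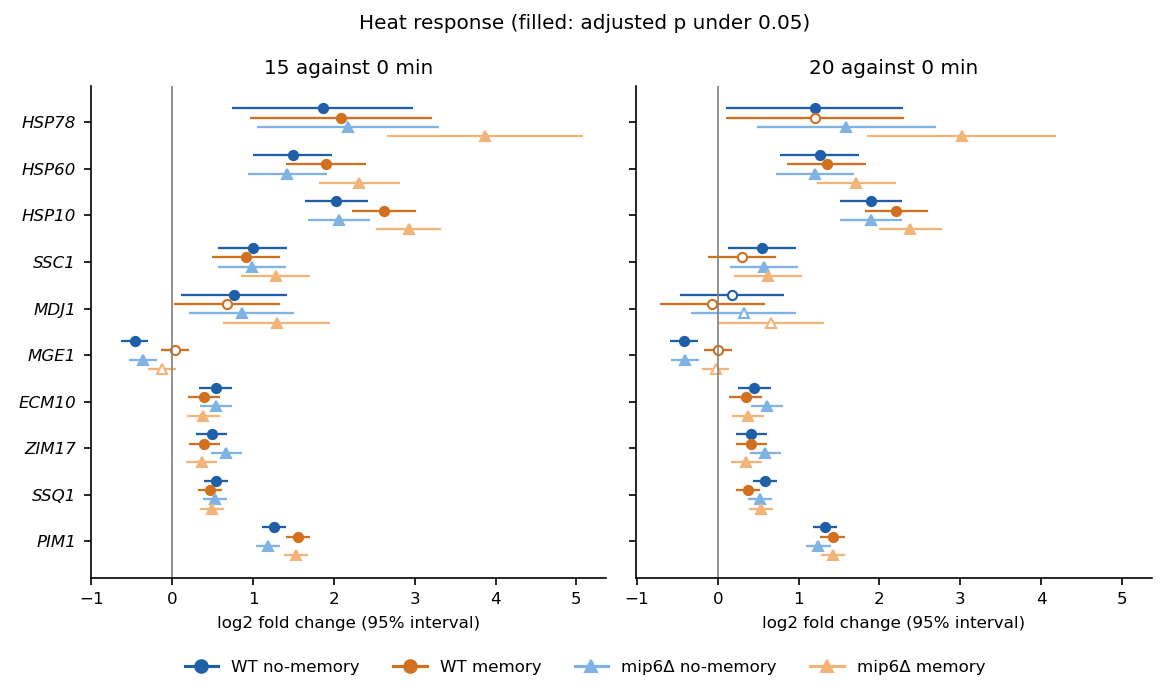
Log2 fold change of each gene at 15 min (left) and 20 min (right) compared with 0 min in the same strain and condition, with 95% intervals from the edgeR fit and filled symbols for an adjusted p under 0.05. The points of *HSP78*, *HSP60* and *HSP10* at 15 min all lie above 1.4, those of *ECM10*, *ZIM17* and *SSQ1* between 0.37 and 0.67, and *MGE1* has filled symbols below 0 in the no-memory cells alone.

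*HSP78* (YDR258C, chrIV:971808-974243, minus strand) encodes the mitochondrial Hsp100 disaggregase, a relative of the cytosolic Hsp104. In WT no-memory cells its level was 1602, 1114 and 679.7 CPM at 0 min, 3340.4, 4579.6 and 4419 CPM at 15 min and between 2010.0 and 3016 CPM at 20 min. Memory cells of WT had 645, 129 and 46.8 CPM at 0 min, 830.2, 1328 and 1339 CPM at 15 min and between 457 and 819.7 CPM at 20 min. The 15 min samples of memory cells thus lay within the range of the unshocked no-memory samples, and the 0 min values of the memory group spread more widely around their mean than those of any other group of this gene.

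In *mip6Δ*, *HSP78* was at 1413, 891 and 579.5 CPM at 0 min and at 5015, 4573 and 3396 CPM at 15 min of no-memory cells. Memory cells had 125, 83.5 and 40.3 CPM at 0 min and 1081, 1427 and 1116 CPM at 15 min. Within each of the 4 groups at 0 min, replicate 1 was highest and replicate 3 lowest, with a ratio of more than 2 between them. All samples at 15 min lay above all samples at 0 min in each strain and condition.

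The fitted increase of *HSP78* at 15 min was 3.63-fold in WT no-memory cells (log2 1.86, 95% interval 0.75 to 2.98, adjusted p = 0.00318) and 4.50-fold in *mip6Δ* no-memory cells (log2 2.17, adjusted p = 0.00081). Memory cells had 4.26-fold in WT (log2 2.09, adjusted p = 0.00148) and 14.6-fold in *mip6Δ* (log2 3.87, interval 2.65 to 5.08, adjusted p = 1.57e-06). Without replicate 1 of WT memory cells at 0 min, the WT memory value was 3.73 on the log2 scale, close to that of *mip6Δ*. At 20 min the increase was called in 3 of the 4 cases, and the exception, WT memory cells (log2 1.20, adjusted p = 0.0535), was called without that library (log2 2.84, adjusted p = 1.1e-05).

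*HSP60* (YLR259C, chrXII:663284-665002, minus strand) encodes the chaperonin ring, and *HSP10* (YOR020C, chrXV:370524-370844, minus strand) its lid. *HSP60* had 2148, 1919 and 1767 CPM at 0 min and 4836, 5419 and 6134 CPM at 15 min of WT no-memory cells. In WT memory cells it had 1409.9, 718 and 501 CPM at 0 min and 2809, 3217 and 3837 CPM at 15 min. No sample at 15 min overlapped with those at 0 min, and the samples at 15 min of memory cells were below those of no-memory cells.

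*HSP60* in *mip6Δ* no-memory cells went from 1900.1, 1819 and 1675 CPM at 0 min to 4753, 4706 and 4999 CPM at 15 min. In *mip6Δ* memory cells it went from 639.7, 648 and 485 CPM to 2352, 3157 and 3305 CPM. The log2 fold change at 15 min was 1.49 ± 0.24 (standard error) in WT no-memory, 1.91 ± 0.24 in WT memory, 1.42 ± 0.24 in *mip6Δ* no-memory and 2.31 ± 0.24 in *mip6Δ* memory cells, with the largest adjusted p at 4.39e-06. *HSP60* was still raised at 20 min in all 4 cases, by 1.20 to 1.71 on the log2 scale. Without replicate 1 of WT memory cells at 0 min, the WT memory values were 2.43 at 15 min and 1.87 at 20 min.

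*HSP10* was the gene with the largest fold change of the 10 in the first shock of WT. It had 470.4, 428 and 364 CPM at 0 min and 1458, 1756 and 1946 CPM at 15 min of WT no-memory cells, and 265, 181 and 147 CPM and then 1098, 1236 and 1316 CPM in WT memory cells. In *mip6Δ* it had 447, 351 and 350.2 CPM and then 1730.2, 1357 and 1711 CPM without memory. With memory the values of *mip6Δ* were 157, 168 and 136 CPM at 0 min and 983, 1288 and 1232 CPM at 15 min.

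These were increases of 4.09-fold, 6.16-fold, 4.18-fold and 7.60-fold, in the same order of groups, with log2 values of 2.03 ± 0.19, 2.62 ± 0.19, 2.06 ± 0.19 and 2.93 ± 0.19 and adjusted p-values of 1.46e-10 or less. *HSP10* was still raised at 20 min, by 1.89 to 2.38 on the log2 scale. In memory cells of both strains all samples at 20 min lay below those at 15 min. The highest at 20 min and lowest at 15 min were 1021 and 1098 CPM in WT and 956 and 983 CPM in *mip6Δ*. Without the library that stood apart, the WT memory log2 values were 2.89 at 15 min and 2.48 at 20 min. Both chaperonin mRNAs thus rose in every strain and condition, and the smaller lid rose by more than the ring in all 4 fits.

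The ratio of *HSP10* to *HSP60*, per coding kilobase and within each sample, followed the shock. It was 1.16 ± 0.05 at 0 min, 1.68 ± 0.06 at 15 min and 1.80 ± 0.11 at 20 min of WT no-memory cells (SD, n = 3), and 1.31 ± 0.29, 2.00 ± 0.14 and 2.18 ± 0.13 in WT memory cells. In *mip6Δ* it was 1.14 ± 0.11, 1.78 ± 0.21 and 1.85 ± 0.15 without memory and 1.40 ± 0.09, 2.14 ± 0.13 and 2.22 ± 0.13 with memory. The ratios at 0 min did not overlap with those at 15 min in any strain and condition. The lowest ratio of WT memory cells at 0 min, 1.01, was that of the library that stood apart. The ratios are a description and were not tested.

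*SSC1* (YJR045C, chrX:519638-521602, minus strand) encodes the main matrix Hsp70. In WT no-memory cells it had 2635, 2219.9 and 2206 CPM at 0 min and 4079.8, 4734 and 5245 CPM at 15 min, and in WT memory cells 1740.4, 939.6 and 777 CPM and then 1938, 2195 and 2382 CPM. The memory samples at 15 min overlapped with the no-memory samples at 0 min and lay below those at 15 min. In *mip6Δ* the values were 2329.5, 2412 and 1947 CPM at 0 min and 4462, 4646 and 4136 CPM at 15 min without memory. With memory they were 879, 968 and 710.2 CPM and then 1703, 2343 and 2169.8 CPM.

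*SSC1* rose at 15 min by 0.99 ± 0.20, 0.91 ± 0.20, 0.99 ± 0.20 and 1.28 ± 0.21 on the log2 scale in WT no-memory, WT memory, *mip6Δ* no-memory and *mip6Δ* memory cells, all called. At 20 min it was called in 3 cases, with 0.55, 0.57 and 0.62, and not in WT memory cells (0.30, adjusted p = 0.204). Without the library that stood apart, the WT memory values were 1.34 at 15 min and 0.73 at 20 min, the latter with an adjusted p of 0.000893.

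*MDJ1* (YFL016C, chrVI:104701-106236, minus strand), the J-protein partner of Ssc1, rose less and for a shorter time. It had 669, 462 and 437 CPM at 0 min and 776, 927 and 958 CPM at 15 min of WT no-memory cells, and 641, 531 and 392 CPM and then 1057, 995 and 781 CPM in *mip6Δ*. Both changes were called, with log2 values of 0.76 (adjusted p = 0.0325) and 0.86 (adjusted p = 0.0167). At 20 min the samples overlapped with those at 0 min in both strains, and *MDJ1* was not called in any of the 4 cases. The values in memory cells at 20 min were -0.07 in WT and 0.66 in *mip6Δ* (adjusted p = 0.0709). Without the library that stood apart both were called, with 0.77 (adjusted p = 0.0107) and 0.66 (adjusted p = 0.0106).

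In memory cells *MDJ1* had 332, 112 and 85.5 CPM at 0 min and 220.2, 301 and 327 CPM at 15 min in WT, and 144, 132 and 74.2 CPM and then 261, 352 and 244 CPM in *mip6Δ*. The change was called in *mip6Δ* (log2 1.29, adjusted p = 0.000804). In WT it was 0.68 with an adjusted p of 0.0622, and 1.52 with an adjusted p of 1.22e-05 without the library at 332 CPM.

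*MGE1* (YOR232W, chrXV:774573-775259, plus strand), the nucleotide exchange factor of the same cycle, went the other way. In WT no-memory cells it had 135, 159 and 130.1 CPM at 0 min and 101, 103 and 103 CPM at 15 min, a decrease to 0.724 of the starting level (log2 -0.47 ± 0.08, adjusted p = 1.41e-05). In *mip6Δ* no-memory cells it went from 154, 121 and 134 CPM to 110.2, 108 and 101 CPM (log2 -0.36 ± 0.08, adjusted p = 0.000337). All samples at 15 and 20 min were below all samples at 0 min in both strains.

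In memory cells *MGE1* was not called at either time. WT memory samples had 120.2, 138 and 142 CPM at 0 min and 144, 125 and 139.9 CPM at 15 min (log2 0.03, 95% interval -0.14 to 0.20), and those of *mip6Δ* had 134, 149 and 147 CPM and then 129, 129 and 136 CPM (log2 -0.13, interval -0.30 to 0.04). At 20 min the log2 fold changes were 0.00 and -0.03.

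The ratios within the Hsp70 cycle differed between memory and no-memory cells, and that of *MGE1* to *SSC1* also moved with heat. *MDJ1* over *SSC1*, per coding kilobase, was 0.281 ± 0.038 in WT no-memory and 0.297 ± 0.049 in *mip6Δ* no-memory cells at 0 min, against 0.179 ± 0.057 and 0.173 ± 0.038 in memory cells, where the highest WT value of 0.244 was that of the library that stood apart. At 15 min its means in WT and *mip6Δ* were 0.243 and 0.273 without memory and 0.165 and 0.177 with memory. Only in WT no-memory cells did these samples not overlap with those at 0 min. *MGE1* over *SSC1* was 0.173 ± 0.030, 0.0630 ± 0.0072 and 0.0894 ± 0.0176 at 0, 15 and 20 min of WT no-memory cells and 0.379 ± 0.165, 0.181 ± 0.028 and 0.270 ± 0.020 in WT memory cells. In *mip6Δ* these ratios were 0.177 ± 0.029, 0.0690 ± 0.0021 and 0.0890 ± 0.0004 without memory and 0.490 ± 0.090, 0.184 ± 0.030 and 0.313 ± 0.046 with memory. At 15 and 20 min each memory sample lay above each no-memory sample of its strain, and at 0 min the WT groups overlapped through the library that stood apart, with a ratio of 0.197.

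**Figure D3:**
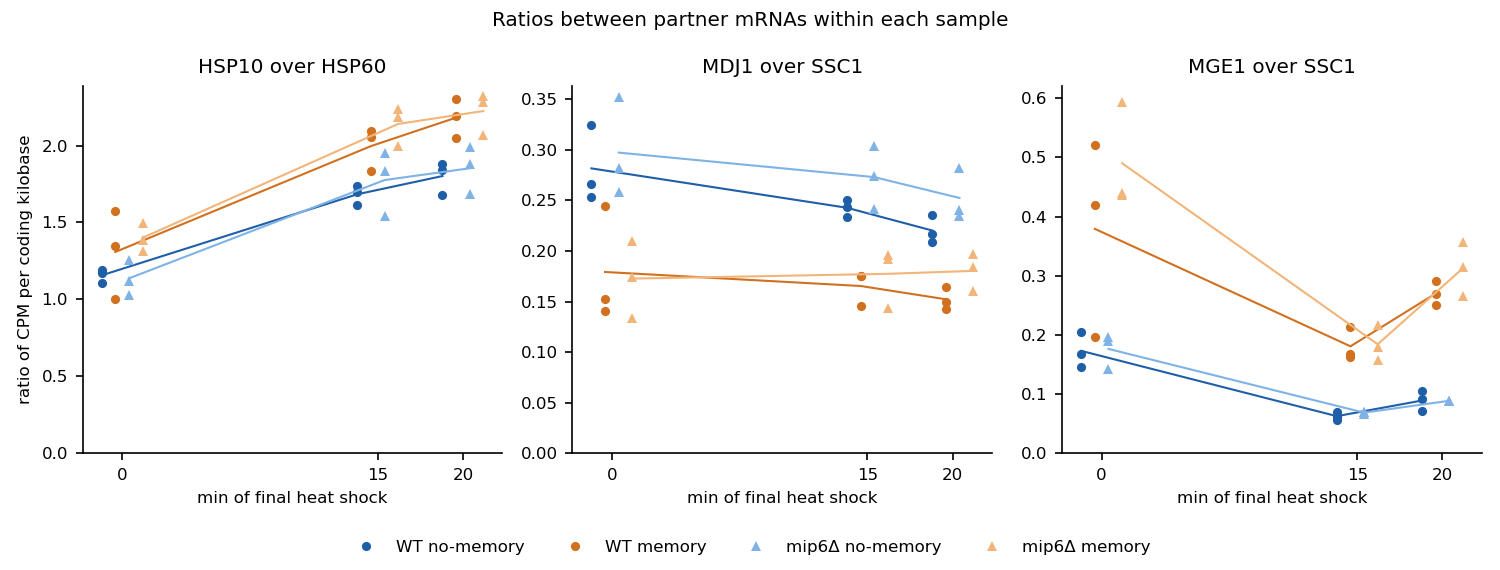
Ratios of CPM per coding kilobase between partner genes in each sample, against minutes of the final heat shock, with lines through the means of 3 samples and points set slightly apart sideways. *HSP10* over *HSP60* is higher at 15 and 20 min than at 0 min, the means of *MDJ1* over *SSC1* are between 0.220 and 0.297 without and between 0.152 and 0.180 with memory, and *MGE1* over *SSC1* is lowest at 15 min.

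*ECM10* (YEL030W, chrV:94644-96578, plus strand) is a paralogue of *SSC1*, *SSQ1* (YLR369W, chrXII:859552-861525, plus strand) encodes an Hsp70 that serves iron-sulfur cluster assembly, and *ZIM17* (YNL310C, chrXIV:51907-52431, minus strand) encodes a zinc finger protein that keeps matrix Hsp70 soluble. Their reads can be told apart by sequence: *SSC1* and *ECM10* shared 76.2% of aligned coding bases, *SSC1* and *SSQ1* 61.7% and *ECM10* and *SSQ1* 60.6%, and none of the 10 genes shared a run of 50 bases with another gene. In WT no-memory cells *ECM10* went from 17.9, 18.8 and 22.2 CPM to 27.1, 28.8 and 29.7 CPM at 15 min, *ZIM17* from 27.7, 26.6 and 26.4 CPM to 38.5, 37.7 and 37.0 CPM, and *SSQ1* from 56.2, 53.4 and 46.1 CPM to 75.8, 77.0 and 74.6 CPM.

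All 3 genes rose in every strain and condition at both times. The log2 fold changes at 15 min were between 0.39 and 0.54 for *ECM10*, between 0.37 and 0.67 for *ZIM17* and between 0.47 and 0.55 for *SSQ1*. At 20 min they were 0.35 to 0.61, 0.35 to 0.59 and 0.38 to 0.58. These increases, of 1.27-fold to 1.59-fold, were small beside those of the chaperonin genes, and *ECM10* stayed below 35 CPM in all 36 samples.

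*PIM1* (YBL022C, chrII:177874-181275, minus strand), the Lon-type protease gene, rose with little spread between samples. It had 178, 185 and 190.1 CPM at 0 min, 419, 451 and 453 CPM at 15 min and 465, 452 and 473 CPM at 20 min of WT no-memory cells. WT memory cells had 145, 137 and 136 CPM, then 394, 420.3 and 420.0 CPM and then 345, 410.0 and 365 CPM. From 15 to 20 min the mean went from 441 to 463 CPM without memory and from 411 to 374 CPM with memory, and neither change was called.

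In *mip6Δ*, *PIM1* had 187, 205 and 187 CPM at 0 min and 449.5, 441 and 425 CPM at 15 min without memory, and 128, 154 and 139 CPM and then 405, 415 and 398 CPM with memory. The log2 fold change at 15 min was 1.26 ± 0.07 in WT no-memory, 1.56 ± 0.07 in WT memory, 1.19 ± 0.07 in *mip6Δ* no-memory and 1.53 ± 0.07 in *mip6Δ* memory cells, with adjusted p-values of 3.67e-14 or less. The standard error of 0.07 was also that of *SSQ1*, against 0.54 to 0.59 for *HSP78*.

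Between 15 and 20 min, none of the 10 genes was called in any strain or condition with edgeR, beside 1.28%, 0.132%, 0.199% and 0.182% of all genes in WT no-memory, WT memory, *mip6Δ* no-memory and *mip6Δ* memory cells. At an unadjusted p under 0.05 the counts were 1, 4, 1 and 3 of the 10 genes, beside 18.4%, 13.1%, 9.41% and 12.5% of all genes. DESeq2 called *SSC1* in WT memory cells (log2 -0.63, adjusted p = 0.029) and *HSP10* and *SSC1* in *mip6Δ* memory cells (log2 -0.56 and -0.68), and the 3 limma fits called none. The samples of *HSP78*, *SSC1* and *MDJ1* at 20 min were all below those at 15 min in each of the 4 cases, with log2 differences from -0.58 to -0.89, from -0.42 to -0.66 and from -0.54 to -0.75. So were those of *HSP60* in every case but WT no-memory cells, and those of *HSP10* in memory cells of both strains. Of all genes, 9.24%, 8.46%, 5.56% and 8.58% had samples at 20 min all below those at 15 min.

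The level of the genes in memory against no-memory cells was compared at each time. Before the final shock, 6 of the 10 genes were lower in memory cells of both strains and none was higher, beside 9.94% of all genes lower in WT and 10.1% in *mip6Δ*. In total 15.4% of all genes were called in each strain. The 6 genes were *HSP78*, *HSP60*, *HSP10*, *SSC1*, *MDJ1* and *PIM1*, while *MGE1*, *ECM10*, *ZIM17* and *SSQ1* were not called.

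**Figure D4:**
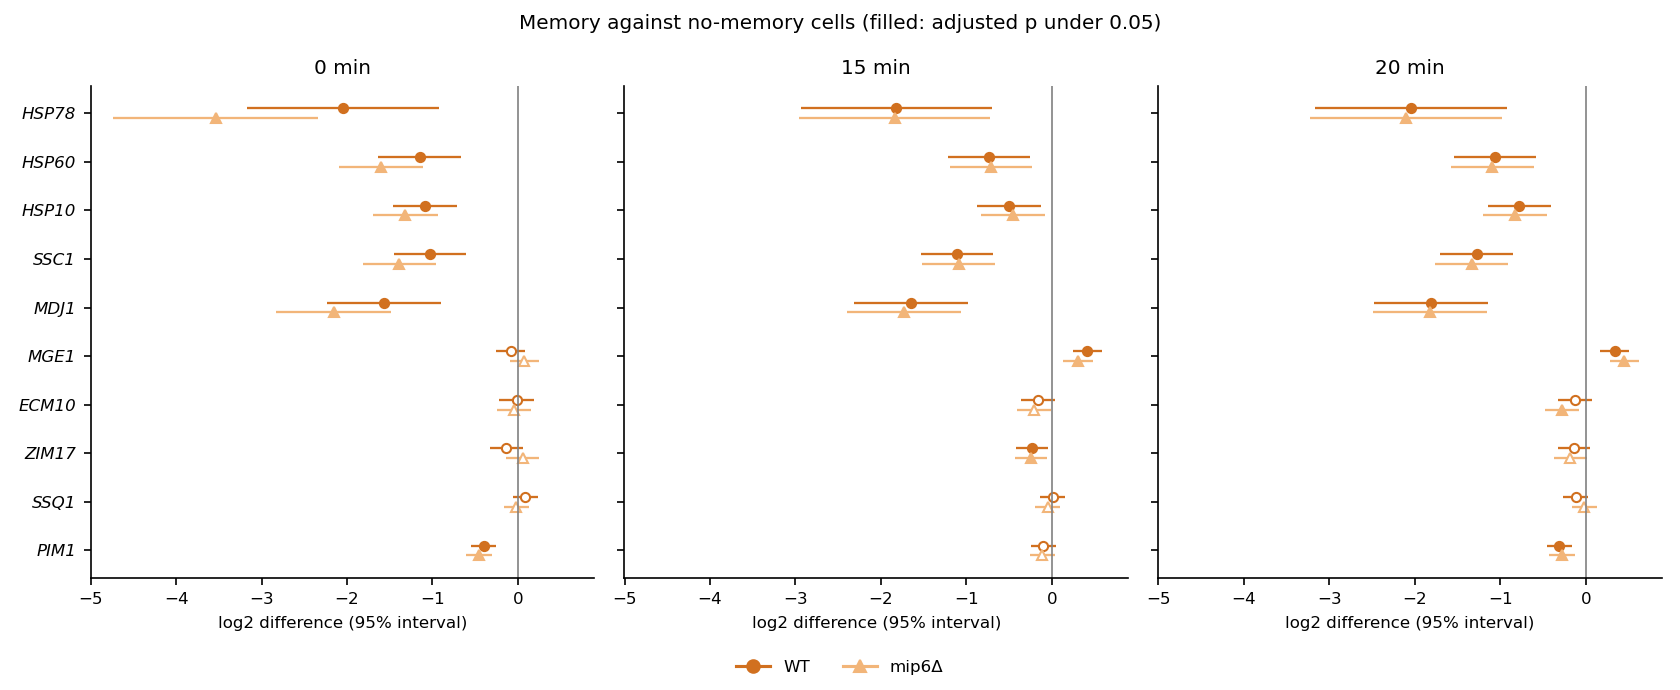
Log2 difference of each gene between memory and no-memory cells at 0, 15 and 20 min, with 95% intervals from the edgeR fit, WT as circles, *mip6Δ* as triangles and filled symbols for an adjusted p under 0.05. *HSP78*, *HSP60*, *HSP10*, *SSC1* and *MDJ1* lie below 0 at all times, *MGE1* lies above 0 at 15 and 20 min, and *SSQ1* stays within 0.12 of 0.

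*HSP78* had the largest difference at 0 min. It was 4.13-fold lower in memory cells of WT (log2 -2.05, 95% interval -3.17 to -0.92, adjusted p = 0.0112) and 11.6-fold lower in those of *mip6Δ* (log2 -3.54, interval -4.73 to -2.34, adjusted p = 0.000107). Without the WT library that stood apart, and with replicate 1 of no-memory cells (1602 CPM) kept, the WT value was -3.68. The next largest was *MDJ1*, with 2.96-fold (log2 -1.57) and 4.46-fold (log2 -2.16), and -2.40 in WT without that library.

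*HSP60*, *HSP10* and *SSC1* were 2.22-fold, 2.13-fold and 2.04-fold lower in WT and 3.04-fold, 2.49-fold and 2.62-fold lower in *mip6Δ* memory cells at 0 min. Without the WT library that stood apart, the WT log2 values were -1.67, -1.36 and -1.45. *PIM1* was 1.32-fold and 1.37-fold lower, with log2 values of -0.40 ± 0.07 and -0.46 ± 0.07. Each of the 6 genes had all 3 memory samples below all 3 no-memory samples in both strains, as 17.3% of all genes had in WT and 16.4% in *mip6Δ*. The WT calls at 0 min rested on few samples: leaving out replicate 2 or replicate 3 of every group left 1 of the 6, whereas leaving out replicate 1 left all 6.

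At 15 min of the final shock, 6 genes were lower and 1 was higher in memory cells of both strains, beside 41.3% of all genes called in WT and 39.1% in *mip6Δ*, with 19.7% and 17.8% lower. At 20 min 6 were lower and 1 higher in WT, and 7 lower and 1 higher in *mip6Δ*, beside 44.3% and 45.2% of all genes called and 22.5% and 22.3% lower. The median log2 difference of the 10 genes was -0.37 and -0.35 at 15 min and -0.54 and -0.56 at 20 min. That of all genes, kept near 0 by TMM scaling, was between -0.01 and 0.01, and between 0.19 and 0.26 with library totals.

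*HSP78*, *MDJ1* and *SSC1* had the largest differences at 15 and 20 min. *HSP78* was lower by a log2 value of -1.82 in WT and -1.84 in *mip6Δ* at 15 min and of -2.04 and -2.10 at 20 min, so that it was nearer to the no-memory level than at 0 min in *mip6Δ* and, without the library that stood apart, in WT. *MDJ1* had -1.65 and -1.72 at 15 min and -1.81 and -1.82 at 20 min, with adjusted p-values of 0.000178 or less. *SSC1* had -1.11 and -1.09 and then -1.28 and -1.33. At 15 and 20 min the values of the strains were within 0.08 of each other for each of these genes.

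The chaperonin genes had smaller differences at 15 min than at 0 or 20 min. *HSP60* had log2 differences of -0.73 in WT and -0.71 in *mip6Δ* at 15 min and of -1.06 and -1.09 at 20 min, and *HSP10* had -0.50 and -0.45 at 15 min and -0.78 and -0.83 at 20 min, all called. *PIM1* was not called at 15 min (-0.10 and -0.11) and was lower at 20 min (-0.31 and -0.28). *MGE1* was higher in memory cells by 0.41 ± 0.08 and 0.30 ± 0.08 at 15 min and by 0.34 ± 0.08 and 0.45 ± 0.08 at 20 min, with no overlap of samples.

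The smaller differences depended on scaling. *ZIM17* was called lower at 15 min (-0.23 and -0.25), but with library totals in place of TMM factors, which raised the median of all genes in these comparisons by 0.16 to 0.25, the values were 0.02 in WT and -0.02 in *mip6Δ* and neither was called. *HSP60* and *HSP10* at 15 min and *PIM1* at 20 min kept their sign in both strains and lost their call under that scaling, as did *ECM10* at 20 min in *mip6Δ* (-0.28, then -0.08). *HSP78*, *SSC1*, *MDJ1* and *MGE1* kept their calls at 15 and 20 min. *SSQ1* was not called at any time with TMM factors, with differences between -0.12 and 0.09. With library totals it was called higher in WT at 0 min (0.28) and 15 min (0.26) and in *mip6Δ* at 20 min (0.19), and *PIM1* in WT at 15 min turned to 0.15 (adjusted p = 0.0493).

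Whether memory changed the response itself was tested by subtracting the log2 fold change of no-memory cells from that of memory cells. At 15 min 1 of the 10 genes was called in WT and 2 in *mip6Δ*, and at 20 min 1 in each, beside 10.8%, 9.61%, 9.89% and 13.5% of all genes. The counts of 1 and 2 of 10 are thus close to the shares among all genes. The genes called were *MGE1* in WT at 15 and 20 min and in *mip6Δ* at 20 min, and *PIM1* and *HSP10* in *mip6Δ* at 15 min.

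*MGE1* had a response higher by 0.50 (95% interval 0.26 to 0.74, adjusted p = 0.00619) at 15 min and 0.42 (0.18 to 0.67, adjusted p = 0.0204) at 20 min in WT memory cells, whose own fold changes were 0.03 and 0.00 on the log2 scale. Without the library that stood apart, the WT value at 20 min was 0.36 and was not called (adjusted p = 0.0855). In *mip6Δ* the values were 0.23 (adjusted p = 0.216) and 0.38 (adjusted p = 0.0315). *PIM1* rose more in memory cells by 0.35 in *mip6Δ* (adjusted p = 0.029) and by 0.30 in WT, where it was not called (adjusted p = 0.0523). *HSP10* rose more by 0.86 in *mip6Δ* (adjusted p = 0.031) and by 0.59 in WT (adjusted p = 0.129). The 5 calls were lost in at least 1 of the fits that left out a replicate number.

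For *HSP78* and *HSP60* this comparison turned on 1 library. The difference in WT at 15 min was 0.23 for *HSP78* (95% interval -1.30 to 1.76) and 0.42 for *HSP60*, neither called. Without replicate 1 of WT memory cells at 0 min it was 1.87 (adjusted p = 0.0471) and 0.94 (adjusted p = 0.0265), and *HSP10* had 0.86 (adjusted p = 0.0302), so that 4 genes were called in WT with *MGE1*. Because that library was picked by the level of these same genes, the added calls are not independent evidence. With replicate 1 left out of every group, the WT difference at 15 min was 0.88 for *HSP60* and 0.74 for *HSP10*. In *mip6Δ* the values with all libraries were 1.70 for *HSP78* (adjusted p = 0.151) and 0.89 for *HSP60* (adjusted p = 0.0819). Without the WT library they kept their size and both were called, at adjusted p-values of 0.0392 and 0.0168, while the standard error of *HSP78* in WT went from 0.74 to 0.57. *SSC1* and *MDJ1* were not called in either strain with or without it, with 0.35 and 0.75 in WT without it.

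Strain made no called difference to any of the 10 genes. The edgeR fit called 0 of 10 at each of the 3 times with and without memory, in the average over them, in the 4 comparisons of heat responses and in the 2 comparisons of the memory effect, and DESeq2 and limma called 0 as well. Of all genes, 0.0166% were called at each time without memory, 0.0331% at each time with memory, 1.14% in the average and 0.00% in each comparison of responses or memory effects. At an unadjusted p under 0.05 the count was 3 of 10 in memory cells at 0 min, 2 in the average and 1 in each comparison of the memory heat responses, beside 5.10%, 16.0%, 2.80% and 3.91% of all genes. Without the WT library that stood apart these counts were 0, 1, 0 and 0. With all libraries it was 0 of 10 in the other comparisons, where it took in 6.11%, 3.18% and 6.53% of all genes without memory at 0, 15 and 20 min, 0.994% and 2.93% with memory at 15 and 20 min, 1.42% and 5.02% in the no-memory responses and 0.513% and 0.812% in the memory effects.

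The average difference between *mip6Δ* and WT can hide a difference in a single condition and time. It was -0.26 for *HSP78* (95% interval -0.71 to 0.18), -0.23 for *HSP60* (-0.43 to -0.04), -0.16 for *HSP10* (-0.32 to -0.01) and -0.14 for *SSC1* (-0.31 to 0.03). *MGE1*, *ECM10*, *PIM1*, *ZIM17* and *SSQ1* were within 0.05 of 0, with the widest of their intervals from -0.12 to 0.10, and *MDJ1* had -0.04 (-0.30 to 0.23). Without the WT library that stood apart the averages were 0.01 for *HSP78* (-0.31 to 0.33), -0.15 for *HSP60* (-0.29 to 0.00), -0.12 for *HSP10* (-0.26 to 0.02), -0.07 for *SSC1* (-0.20 to 0.06) and 0.10 for *MDJ1* (-0.09 to 0.29). The largest single value, *HSP78* in memory cells at 0 min (-1.73, adjusted p = 0.389), was -0.09 without the WT library that stood apart.

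Other genes of mitochondrial protein import did not share this pattern. Of 9 genes of the presequence translocase and its motor, none was higher and 6 were lower at 15 min in WT no-memory cells (median log2 -0.30), and of 8 genes of the outer membrane translocase none was higher and 5 were lower (median -0.29). Among all genes 71.9% were called there and 35.9% were higher. Memory cells of WT had 1 higher and 1 lower and 1 higher and 0 lower, in the same order, beside 64.3% of all genes called and 31.7% higher. Without the library that stood apart they had 0 and 2 and 1 and 2. At 15 min of the first shock in WT, none of the 9 genes of the presequence translocase and its motor was thus called higher with *SSC1*. At 20 min 1 of them was called higher, beside 34.8% of all genes.

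The other mitochondrial proteases and prohibitins were closer to *PIM1*. Of 20 genes, 17 rose and none was lower at 15 min in WT no-memory cells (median 0.51), and 17 rose in WT memory cells (median 0.54). Among all genes 35.9% and 31.7% were higher, in the same order. *MGR1* alone of these, which encodes an adaptor of the i-AAA protease, passed a 2-fold change, with a log2 value of 1.44 ± 0.15. Among 15 J-proteins and genes of iron-sulfur assembly, 6 rose and 5 were lower in WT no-memory cells. These counts are close to the shares among all genes, of which 71.9% were called and 35.9% were higher. Those past a 2-fold change in this list were the scaffold gene *ISU2* (-1.54), the exporter gene *ATM1* (-1.72) and the ferredoxin gene *YAH1* (-1.21). The Hsp70 of that pathway, *SSQ1*, rose by 0.55.

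The cytosolic heat shock chaperones gave larger changes in the same direction as the mitochondrial ones. Of 13 genes, 12 rose at 15 min in WT no-memory cells, beside 35.9% of all genes. Their median log2 fold change was 1.65, and among those that rose were *HSP26* (8.19), *SSA3* (5.09), *HSP104* (2.33) and *STI1* (1.98). Memory cells had lower levels of 10 of the 13 at 0 min in WT (median -1.47) and of 12 in *mip6Δ* (median -2.53), and at 15 min 11 were lower in each strain. Among all genes 9.94% and 10.1% were lower at 0 min and 19.7% and 17.8% at 15 min, in WT and *mip6Δ*. Without the library that stood apart, 12 were lower at 0 min in WT (median -2.65) and 13 at 15 min. *HSP104*, the cytosolic counterpart of *HSP78*, differed by -3.01 in *mip6Δ* at 0 min (adjusted p = 0.000776), and by -1.60 in WT (adjusted p = 0.0516).

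Over the 12 group means of log2 CPM, the genes most like each of the 10 were named by Pearson's r among 6037 genes, as a description without a test, since all points share the same libraries. *HSP78* ran closest with *HSP42* (r = 0.995), which encodes a small heat shock protein, and *SSA2* (r = 0.995), *HSP60* with *HSC82* (0.996) and *STI1* (0.995) of the Hsp90 system, and *HSP10* with the Hsp90 cochaperones *HCH1* (0.998) and *CPR6* (0.998). *SSC1* ran closest with *ERO1* (0.995), the oxidase of the endoplasmic reticulum, *MDJ1* with *ROQ1* (0.996), *PIM1* with *UBX4* (0.997), *ZIM17* with *DER1* (0.987), *ECM10* with *RAD7* (0.990), *SSQ1* with *YGL185C* (0.997) and *MGE1* with *GPA1* (0.975). Among themselves, *SSC1* and *MDJ1* had r = 0.972 and *HSP10* and *PIM1* r = 0.978, *HSP78* and *HSP60* r = 0.976, and *MGE1* ran against *SSC1* with r = -0.828. Values this high were common: among the 6037 genes, *MDJ1* held rank 17 for *SSC1*, *PIM1* rank 149 for *HSP10* and *HSP60* rank 20 for *HSP78*.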

How the data were processed

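Samples were grouped by the strain, memory and time labels. Per the submitters' notes and the study's methods, Trimmomatic, HISAT2 on sacCer3 and StringTie were used, and the authors deposited the read count of each gene. They also deposited normalized counts, a signal on a linear scale, made with TMM, a low count filter and ARSyN removal of hidden batch effects. Whether ARSyN was given the groups is not stated, so the read counts were tested here. The count rows were filtered with filterByExpr and fitted with edgeR 4.0.16 in R 4.3.3 (TMM, glmQLFit robust, glmQLFTest) as 12 group means with 24 residual degrees of freedom. Standard errors are the log2 fold change over the root of F, and intervals are at 95% from the t distribution on these degrees of freedom. Alternatives used DESeq2 1.42.0, limma 3.58.1 on log2 normalized counts, other scalings and filters, a replicate block and fits without samples. The steps were tested on simulated data with known changes in a single group and samples drawn independently. That test cannot show how calls fare when samples with the same replicate number are correlated.

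The members and gene lists were chosen with earlier results of these data known. Other genes were named when they belonged to a list and had an adjusted p under 0.05 and a fold of at least 2 in WT no-memory cells at 15 min, from which examples are given, or were among the 3 most like a member. Promoter searches and alignments used Biopython 1.88. Replicates of a group differed by more than counting noise (chi-square per degree of freedom 22.7 to 217). No protein sequence is shown. Counts cover whole libraries, and at this depth the lowest read count of the 10 genes is far above 0.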

Additional observations from a re-analysis of the deposited data

Results flagged for a closer look

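In 5 cases the heat response of memory cells differed from that of no-memory cells by the edgeR test of the difference itself. *MGE1* in WT had log2 differences of 0.50 at 15 min and 0.42 at 20 min, with log2 fold changes of 0.03 and 0.00 in memory and -0.47 and -0.42 in no-memory cells. *MGE1* in *mip6Δ* had 0.38 at 20 min. *PIM1* in *mip6Δ* had 0.35 at 15 min, with log2 fold changes of 1.53 in memory and 1.19 in no-memory cells. *HSP10* in *mip6Δ* had 0.86 at 15 min, with 2.93 and 2.06. The comparison of these differences between the strains called none of the 10 genes.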

How the results depend on the processing

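Of 115 called results of the 10 genes, all kept direction and call under DESeq2, RLE factors, no filter, the 3 limma fits and the replicate block. Under library totals 8 lost their call and *ZIM17* in WT memory against no-memory cells at 15 min reversed, to 0.020 (adjusted p = 0.886). With the genes of the authors' table, without *mip6Δ* memory 0 min replicate 2, and without WT memory 0 min replicate 1 (chosen after seeing the data), 1 call each was lost. Without replicate 1, 2 or 3 of every group, 7, 33 and 22 were lost. The cause of these losses was not tested.

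Counts of called genes that changed by more than 1.5 times were these. Between 15 and 20 min DESeq2 called 1 gene in WT and 2 in *mip6Δ* memory cells, against 0. In memory against no-memory cells, leaving out a replicate number gave 1 to 6 genes in WT at 0 min, 3 to 6 in WT at 15 min and 3 to 5 in *mip6Δ* at 15 min, where library totals gave 4. The memory effect on the response in WT at 15 min was called for 2 genes, against 1, under DESeq2, RLE factors, library totals, no filter, the authors' genes and without *mip6Δ* memory 0 min replicate 2, for 3 under the 3 limma fits, for 0 to 2 without a replicate number and for 4 without WT memory 0 min replicate 1. In WT at 20 min it was called for 0 to 1 without a replicate number and 0 without that library. In *mip6Δ* at 15 min it was called for 4 under the 3 limma fits and without that library and for 0 to 3 without a replicate number, and at 20 min for 0 without any of the replicate numbers.

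Memory and no-memory cells came from a split culture, but the labels do not tie the replicate numbers to cultures, so the replicate block was an alternative. Deviations of samples with the same number correlated with a median r of 0.18 (-0.23 to 0.70), and 32 of 36 samples correlated best with their own number. The block called 2 genes for the memory effect in WT at 15 min, against 1, and moved no other count by more than 1.5 times. Results called with the block and not without it were *MDJ1* in WT memory cells at 15 min (0.77, adjusted p = 0.0283), *HSP78* in WT memory cells at 20 min (1.40, adjusted p = 0.0217), *MDJ1* in *mip6Δ* memory cells at 20 min (0.69, adjusted p = 0.0456), *ZIM17* in *mip6Δ* memory against no-memory cells at 20 min (-0.18, adjusted p = 0.0455), and the memory effect at 15 min on *PIM1* in WT (0.30, adjusted p = 0.0183) and *ZIM17* in *mip6Δ* (-0.30, adjusted p = 0.0457). The limma fits and library totals also called these *MDJ1*, *HSP78* and *PIM1* results.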
